A study of Mus musculus with 4 samples.

Results

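Ccl2, Ccl5, Ccl7 and Ccl9 encode 4 small secreted proteins of the CC chemokine family, and their transcripts were followed in mouse embryonic fibroblasts with and without the Xiap gene. They are 4 of the 8251 genes that the array names through a probe set of their own, and each is read by 1 probe set of 12488. The 4 genes were chosen by their signals and TNF responses on these same arrays, so every value below describes them and none is tested. Each of 4 groups was measured on 1 Affymetrix U74Av2 oligonucleotide array: Xiap knockout cells with TNF, Xiap knockout cells left unstimulated, wild-type cells with TNF, and wild-type cells left unstimulated. Treated cultures were confluent and received 20 ng/ml TNFa, the cytokine tumour necrosis factor, for 4 hours. All cultures were grown in DMEM with fetal calf serum. The study asked how fibroblasts respond to TNF and whether that response differs without Xiap, the gene of a caspase inhibitor and ubiquitin ligase (X-linked inhibitor of apoptosis).

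With 1 array per group there is no replicate behind any ratio, and precision is limited by that number of arrays. The arrays had been brought to a common trimmed mean of 500.3 before deposit, and their median signals lay between 151 and 183. A signal is the MAS5 intensity of a probe set on a linear scale. Signals under 92.5, the 40th percentile of all non-control signals, were treated as too dim to order, and this value is called the floor. A ratio with 1 array below the floor is a bound, written as at least N-fold. The Xiap probe set had 120 and 181 in knockout cells with and without TNF, against 126 and 239 in wild-type cells, so its signals did not separate the genotypes with TNF (ratio 0.955) and were 0.755 times the wild-type value unstimulated. The labels do not state which part of Xiap was deleted, so this probe set does not check the genotype. The labels do not say whether the cultures were littermates, pooled embryos or an established line. Xist, made from the inactive X chromosome, had signals of 1601 and 1232 in knockout cells with and without TNF, against 5.4 and 34.3 in wild-type cells. The Y-linked Eif2s3y had 9.1 and 2.8 in knockout cells, against 308 and 489 in wild-type cells. The Xist and Eif2s3y signals thus separated the genotypes, and a difference due to Xiap cannot be told apart from any other difference between the cultures. In bulk RNA, fewer expressing cells and less RNA per cell also cannot be told apart.

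CC chemokines carry a pair of adjacent cysteines near the amino terminus and draw leukocytes by binding receptors that signal through G proteins. Fibroblasts are a tissue source of several of them during inflammation. TNF binding to its receptor frees NF-kB from its IkB inhibitors, and NF-kB then enters the nucleus and activates chemokine genes. Ccl2 and Ccl7 are monocyte chemoattractants that act through Ccr2. Ccl5, also called RANTES, attracts T cells, eosinophils and monocytes, and its promoter is known to take input from interferon regulatory factors as well as NF-kB. Ccl9 is a mouse chemokine that acts through Ccr1.

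The RefSeq promoter table (GRCm38.p6) held 1 of the 4 genes, Ccl9, at chr11:83578587-83578886 on the minus strand, and the neighbouring Ccl6 at chr11:83593038-83593337, also on the minus strand. Both are shown because the genes lie side by side while Ccl9 was bright with TNF and Ccl6 stayed below the floor on all 4 arrays. Each run covers 250 bases before to 50 bases after the gene's start. Capitals mark matches to the NF-kB consensus or to TGANTCA, an AP-1 motif loosened to allow any middle base. Both were searched on both strands.
Ccl9: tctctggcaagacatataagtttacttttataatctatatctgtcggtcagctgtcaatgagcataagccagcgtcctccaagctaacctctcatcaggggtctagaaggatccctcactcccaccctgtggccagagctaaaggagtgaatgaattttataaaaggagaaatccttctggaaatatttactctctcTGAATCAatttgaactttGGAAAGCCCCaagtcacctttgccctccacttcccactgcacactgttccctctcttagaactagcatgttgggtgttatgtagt
Ccl6: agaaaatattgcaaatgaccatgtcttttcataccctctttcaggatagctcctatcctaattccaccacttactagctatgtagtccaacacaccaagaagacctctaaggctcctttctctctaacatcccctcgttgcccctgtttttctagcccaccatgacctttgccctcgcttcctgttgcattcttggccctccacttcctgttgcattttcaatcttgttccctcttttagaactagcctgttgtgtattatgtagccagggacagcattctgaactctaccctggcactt
The Ccl9 window held 1 NF-kB consensus match, which begins 35 bases before the start and reads on the opposite strand. It also held 1 match to TGANTCA that begins 53 bases before the start. Its middle base is A, so it matches the loosened AP-1 motif alone. The 2 matches do not overlap. The Ccl6 window held neither. Among 27025 promoters of the same length, 1 a gene, 8.18% held the NF-kB consensus and 7.93% the loosened AP-1 motif. Neither window held the interferon response motif GAAANNGAA on either strand, which 8.57% of promoters did. The window of Ccl1, a gene that read 95.1 at most, held an overlapping pair of NF-kB consensus matches that begin 196 and, on the opposite strand, 195 bases before its start. These are matches of letters, not measured binding.

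Ccl2 and Ccl7 showed 1 course. Ccl2 had a signal of 18083 in knockout cells with TNF, against 173 in unstimulated knockout cells. In wild-type cells it had 18414 with TNF, against 1439 unstimulated. Both TNF arrays were therefore bright for Ccl2 and nearly equal, and the unstimulated knockout array was the dim one. Ccl2 was 104-fold higher with TNF in knockout cells and 12.8-fold higher in wild-type cells. Ccl7 had 6875 in knockout cells with TNF, against 94.7 in unstimulated knockout cells. Its wild-type signals were 7577 with TNF, against 406 unstimulated. Ccl7 was 72.6-fold higher with TNF in knockout cells and 18.6-fold higher in wild-type cells. The unstimulated knockout signal of Ccl7 was only 1.02 times the floor, so its knockout ratio rests on a value at the edge of what was ordered.

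For Ccl5 and Ccl9 the knockout array with TNF stood above the wild-type array with TNF, though to unlike degrees. Ccl5 had 4666 in knockout cells with TNF, against 9.5 in unstimulated knockout cells, a value below the floor. In wild-type cells it had 835 with TNF, against 140 unstimulated. Ccl5 was at least 50.4-fold higher with TNF in knockout cells and 5.96-fold higher in wild-type cells. Ccl9 had 1353 in knockout cells with TNF, against 102 in unstimulated knockout cells. Its wild-type signals were 684 with TNF, against 182 unstimulated. Ccl9 was 13.3-fold higher with TNF in knockout cells and 3.76-fold higher in wild-type cells, the smallest ratio of the 4 genes in either genotype. Its unstimulated signals were 1.10 times the floor in knockout cells and 1.97 times in wild-type cells.

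**Figure D1:**
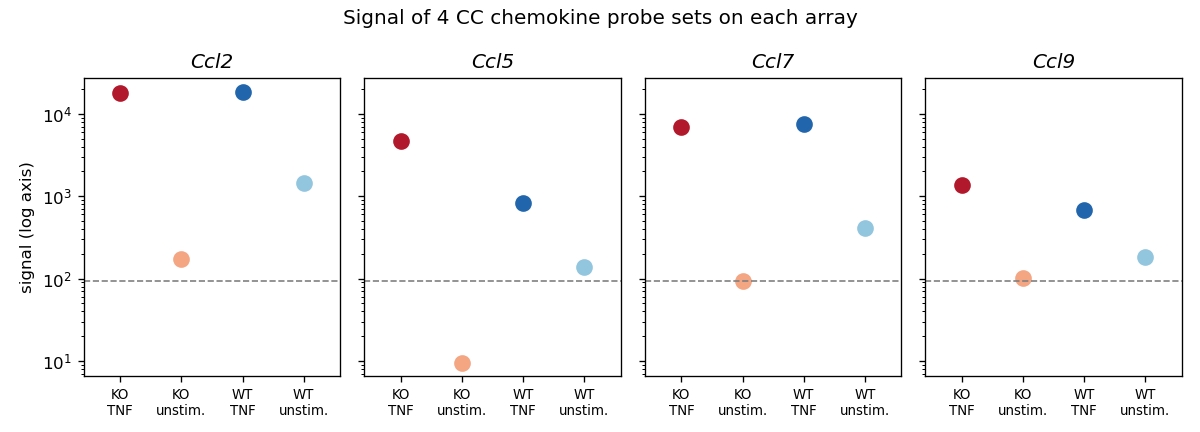
Signal of each probe set (log axis) on the 4 arrays, 1 point per array, from left to right knockout with TNF, knockout unstimulated, wild-type with TNF and wild-type unstimulated. The dashed line is the floor of 92.5. The TNF points of Ccl2 and Ccl7 lie level between genotypes, those of Ccl5 and Ccl9 are higher in knockout cells, and every unstimulated knockout point is the lowest of its panel.

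All 4 genes passed the 2-fold line upward with TNF in knockout cells, where 1.48% of 5868 measured genes did, and all 4 in wild-type cells, where 2.64% of 5911 did. Since these responses were known when the genes were chosen, nothing is read from that contrast. Genes at least 2-fold lower with TNF made up 0.409% in knockout and 2.61% in wild-type cells, with no CC chemokine among them. Ranked among 5527 genes above the floor on both knockout arrays, the response of Ccl2 stood at place 1, Ccl7 at place 2 and Ccl9 at place 4. Ccl5 has no place there because its starting signal was below the floor. The same held for other strong responders, so the places are upper limits. Gbp2 and Gbp3 had log2 responses of at least 4.22 in knockout cells and Saa3 of at least 3.97, against 3.73 for Ccl9. Among 5313 such genes in wild-type cells, Ccl7 stood at place 3, Ccl2 at 5, Ccl5 at 14 and Ccl9 at 37. Left out there for the same reason were Gbp2, at least 4.83, and Cxcl10, at least 4.29, against 4.22 for Ccl7.

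Without TNF, all 4 probe sets were dimmer in knockout than in wild-type cells. Ccl2 had 173 in knockout cells, against 1439 in wild-type cells, a log2 ratio of -3.05 (8.30-fold lower). Ccl7 had 94.7 in knockout cells, against 406 in wild-type cells, a log2 ratio of -2.10 (4.29-fold lower). These were the only 2 of the 4 genes past 2-fold, where 4.7% of 6062 measured genes were at least 2-fold lower in knockout cells and 4.55% at least 2-fold higher. Ccl9 was 1.79-fold lower in knockout cells. Ccl5 was at least 1.51-fold lower there, the bound being weak because its wild-type signal was itself only 1.51 times the floor.

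With TNF, Ccl2 and Ccl7 were nearly equal between genotypes, while Ccl5 and Ccl9 were higher in knockout cells to unlike degrees. Ccl2 and Ccl7 had log2 ratios of knockout to wild-type of -0.03 and -0.14. Ccl5 was 5.59-fold higher in knockout cells (4666 against 835 in wild-type cells), and Ccl9 was 1.98-fold higher (1353 against 684), just under the 2-fold line. At least 2-fold higher in knockout cells with TNF were 5.62% of 5852 genes, and at least 2-fold lower 5.01%. The Ccl2 signals of 18083 and 18414 lay toward the top of the range of their arrays, on which the brightest non-control probe sets read 21983 and 26146. Whether saturation narrowed the Ccl2 ratio was not tested.

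**Figure D2:**
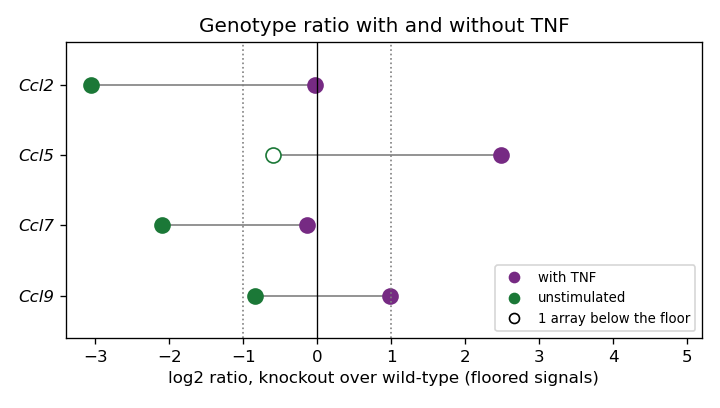
Log2 ratio of knockout to wild-type signal for each gene, with TNF (purple) and unstimulated (green), joined by a line; the open point is a bound with 1 array below the floor, and dotted lines mark 2-fold. Ccl2 and Ccl7 lie left of 0 unstimulated and at 0 with TNF, while Ccl5 and Ccl9 lie right of 0 with TNF.

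Subtracting a gene's log2 TNF response in wild-type cells from its log2 response in the knockout gives the difference of response. It was 3.03 for Ccl2, at least 3.08 for Ccl5, 1.96 for Ccl7 and 1.82 for Ccl9, which makes the knockout fold change 8.15, at least 8.46, 3.89 and 3.53 times the wild-type one in the same order. Past 2-fold in this direction were 2.53% of 6174 genes, and 1.13% in the other. The 4 genes split when the linear rise in signal was compared in place of the fold change. The signal of Ccl2 was higher with TNF by 17910 in knockout cells and by 16975 in wild-type cells, a ratio of 1.06. For Ccl7 the rises were 6780 in knockout cells and 7171 in wild-type cells, a ratio of 0.945. The larger fold changes of Ccl2 and Ccl7 in knockout cells thus went with lower starting signals and with linear rises close to those of wild-type cells. For Ccl5 the rises were 4656 in knockout cells and 695 in wild-type cells, a ratio of 6.70. For Ccl9 they were 1251 in knockout cells and 502 in wild-type cells, a ratio of 2.49. Ccl5 and Ccl9 therefore had a larger response in knockout cells on both scales, whereas Ccl2 and Ccl7 had one on the log scale alone. The ratios of rises largely repeat the genotype ratios with TNF, because the unstimulated signals were the smaller ones. Those ratios were 0.982 for Ccl2, 0.907 for Ccl7, 5.59 for Ccl5 and 1.98 for Ccl9. Whether saturation made the Ccl2 rises alike was not tested.

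**Figure D3:**
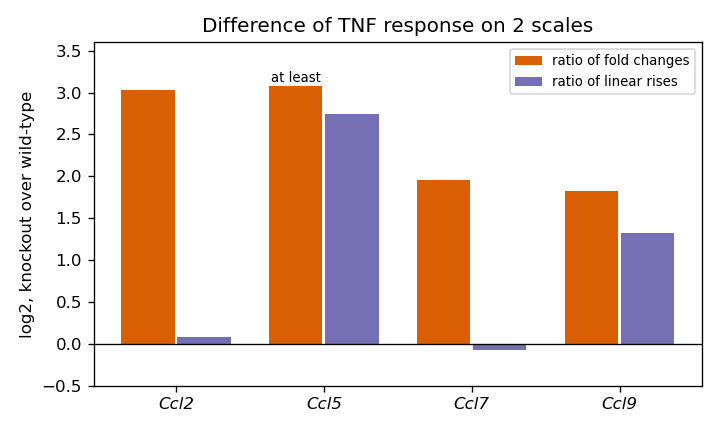
Difference of TNF response, knockout over wild-type, for each gene as log2 of the ratio of fold changes (orange, floored signals) and log2 of the ratio of linear rises (violet, unfloored signals). For Ccl2 and Ccl7 the violet bars are near 0, at 0.077 and -0.081, and for Ccl5 and Ccl9 they reach 2.74 and 1.32.

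Ccl2 and Ccl7 are neighbours in the genome, and so are Ccl5 and Ccl9. Whether position bears on their signals was not tested. In the RefSeq gene order of chromosome 11, Ccl2 and Ccl7 stand side by side and open a run of 6 CC chemokine genes that goes on with Ccl11, Ccl12, Ccl8 and Ccl1. After 25 other protein-coding genes comes a run of 5, in which Ccl5 and Ccl9 stand side by side and are followed by Ccl6, Ccl3 and Ccl4. The genes of each pair have no other protein-coding gene between them. The neighbours were dim on every array. Ccl11, the eosinophil chemoattractant eotaxin, reached 15.5 at most, and Ccl12 and Ccl8, which encode relatives of Ccl2, reached 44.1 and 60.2. Ccl6, Ccl3 and Ccl4 reached 28.6, 48.9 and 17.9. Ccl1 passed the floor on 1 array, at 95.1 in knockout cells with TNF. Probe sequences were not used here, and how far related chemokine transcripts share hybridisation was not tested.

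**Figure D4:**
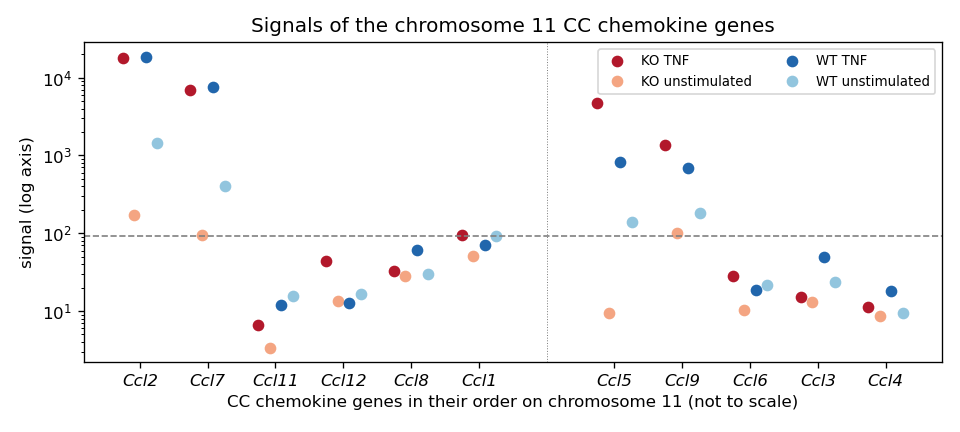
Signals (log axis) of 11 CC chemokine genes on the 4 arrays, in their gene order on chromosome 11 and not to scale; the dashed line is the floor and the dotted line the stretch of 25 other genes. Only the pairs Ccl2 with Ccl7 and Ccl5 with Ccl9 lie well above the floor; values under the dashed line have no order.

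Of 24 CC chemokine genes in the family list, 14 had a probe set of their own, and 7 of these were below the floor on all 4 arrays. Outside chromosome 11, Ccl25 reached 90.7 at most. Ccl17, a ligand of Ccr4, had 164 in knockout cells with TNF (at least 1.77-fold higher than unstimulated) and was below the floor on the other arrays. Ccl22, another Ccr4 ligand, had 69.6 and 91.7 in knockout cells with and without TNF, against 146 and 186 in wild-type cells. It was at least 2.01-fold lower in unstimulated knockout cells, just past the 2-fold line, which Ccl2 and Ccl7 also passed. Under quantile normalization or equal medians the count of such CC chemokines was 2 in place of 3, and Ccl22 was no longer among them. Over the measured CC chemokines the median log2 response was 4.69 in knockout cells (6 genes, all genes -0.04) and 2.57 in wild-type cells (5 genes, all genes -0.10). The list holds the 4 chosen genes, and Ccl1 and Ccl17 counted as measured only through the knockout array with TNF. These medians are therefore no support for a response of the family. For the genotype ratio, knockout over wild-type on the log2 scale, the median was 0.04 with TNF (7 genes, all genes 0.07) and -1.01 unstimulated (5 genes, all genes -0.01). The median difference of response was 1.82 (7 genes, all genes 0.04). Each of these 3 medians is the value of 1 gene: the bounds of Ccl1 with TNF and Ccl22 unstimulated, and the difference of Ccl9. They too include the 4 chosen genes, so nothing about the family is read from them.

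Chemokine genes of the other families were read beside these. Of 11 on the array, 4 passed 2-fold upward with TNF in knockout cells (5 measured, all genes 1.48%). In wild-type cells 4 did (6 measured, all genes 2.64%). These were Cxcl1, Cxcl5, Cxcl10 and Cx3cl1 each time. Earlier results were known when the list was chosen, so nothing is read from these counts. The median log2 response was 2.32 in knockout and 1.56 in wild-type cells. Floored differences of response passed 2-fold toward knockout cells for 1 of 6 and toward wild-type cells for 2, with a median of -0.29. Over all measured genes these shares were 2.53% and 1.13%. The genes toward wild-type cells were Cxcl1 and Cxcl10. Cxcl10 had 235 and 4.1 in knockout cells with and without TNF, against 1810 and 51.3 in wild-type cells, and since both unstimulated signals were below the floor the direction of its difference is not known. The gene toward knockout cells was Cxcl5, a neutrophil chemoattractant. It had 950 and 191 in knockout cells with and without TNF, against 196 and 25.4 in wild-type cells. Its floored difference of 1.23 is an upper bound, because its unstimulated wild-type signal was below the floor. The direction of the Cxcl5 difference is therefore not known either. Without TNF, the signals of Cxcl1 and Cxcl5 exceeded 2-fold above wild-type in knockout cells, while Cxcl12 and Cx3cl1 were lower. Cx3cl1, the ligand of Cx3cr1, had 714 in unstimulated knockout cells, against 1734 in wild-type cells. With TNF it had 5159 in knockout cells, against 7087 in wild-type cells, so its log2 genotype ratio was -0.46 with TNF and -1.28 unstimulated.

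**Figure D5:**
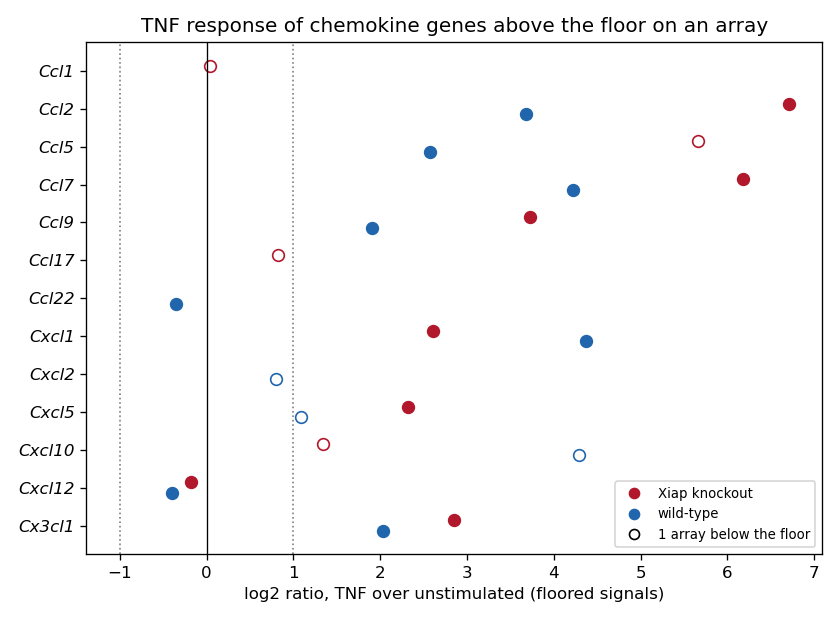
Log2 ratio of TNF over unstimulated signal for the 13 chemokine genes above the floor on at least 1 array, in knockout (red) and wild-type (blue) cells; open points have 1 array below the floor, points with both arrays below it are left out, and dotted lines mark 2-fold. Red lies right of blue for Ccl2, Ccl5, Ccl7, Ccl9, Cxcl5, Cxcl12 and Cx3cl1, and left of it for Cxcl1 and Cxcl10. Both points of Cxcl10 and the blue point of Cxcl5 are bounds. The order of the points is therefore not known for Cxcl10 and Cxcl5.

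Genes of the machinery that drives these chemokines were read beside them. Of 16 such genes on the array, 7 of 14 measured passed 2-fold upward with TNF in knockout cells and 11 of 15 in wild-type cells. Over all measured genes the shares were 1.48% and 2.64%. The list was chosen with earlier results of these data known, so nothing is read from that contrast. Median log2 responses were 1.03 in knockout and 1.92 in wild-type cells. The floored difference of response was past 2-fold toward knockout cells for none of 15 (all genes 2.53%). It was past 2-fold toward wild-type cells for 2, Cebpd and Fos (all genes 1.13%), and its median was -0.28. With TNF, 4 of 15 were at least 2-fold lower in knockout than in wild-type cells (all genes 5.01%). These were Cebpb, Cebpd, Fos and Tnfrsf1b, and none was at least 2-fold higher. Both knockout signals of Fos, 49.7 and 46.6 with and without TNF, were below the floor. Neither the size nor the direction of its difference of response is therefore known. Nfkbia, which encodes the NF-kB inhibitor IkB alpha, was 5.91-fold higher in knockout and 6.20-fold higher in wild-type cells. Irf1, an interferon regulatory factor gene, had 2748 and 302 in knockout cells with and without TNF, against 2566 and 482 in wild-type cells. Tnfrsf1a, the main TNF receptor gene of fibroblasts, lay between 1028 and 1130 on all 4 arrays. Tnfrsf1b, the other TNF receptor gene, had 237 and 173 in knockout cells with and without TNF, against 561 and 420 in wild-type cells. Of 14 genes of this list measured there, it was the only 1 past 2-fold lower in unstimulated knockout cells (all genes 4.7%).

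The receptors of these chemokines were mostly below the floor. Of 13 on the array, 10 were below the floor on all arrays, with Ccr2 at 5.9 at most, Ccr1 at 14.3 and Ccr3 at 47.7. Ccr6, Ccrl2 and the scavenging receptor gene Ackr4 passed the floor on at least 1 array, and none reached 2-fold in any comparison. Since macrophages and T cells also make CC chemokines, 17 leukocyte markers were read. Of these, 8 were below the floor on all arrays, among them Ptprc at 9.2 at most, Cd53 at 4.3, Adgre1 at 22.0, Itgam at 45.5 and Cd3e at 33.2. Cd68 (113 to 145) and Laptm5 (112 to 194) were dim but above the floor on all arrays, and Cd79a, Coro1a, Itgax, Lyz2 and Cd52 passed it on at least 1. In the whole list, the summed signal of the list was 3668 in knockout cells with TNF and 3620 without, against 2400 and 3392 in wild-type cells. Cd14, which fibroblasts can also express, gave most of each sum, with 1534 to 2402. Csf1r, the receptor gene of macrophage growth factor, had 293 and 373 in knockout cells with and without TNF, against 114 and 355 in wild-type cells. It was at least 2-fold lower with TNF in wild-type cells and higher in knockout cells with TNF, and its part in the chemokine values was not tested. Epithelial and endothelial markers were below the floor on all arrays in 6 of 7 and 5 of 7 cases. The epithelial exception was Cdh1, above the floor on all arrays at 296.8 to 530.5. Of the endothelial exceptions, Pecam1 passed the floor only in unstimulated wild-type cells, at 103.8. Kdr passed it only unstimulated, at 126.4 in knockout and 188.9 in wild-type cells, and was at least 2.04-fold lower with TNF in the latter. Fibroblast markers were bright, with Col1a2 between 19119 and 20439 and Pdgfra between 1359 and 2478, although the Vim probe set reached 94.5 at most. Thy1 was lower in knockout cells, at 219 and 308 with and without TNF, against 1384 and 1120 in wild-type cells, and S100a4 was higher, at 4144 and 4106, against 1226 and 1351.

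Likeness over the 4 arrays was measured as the Euclidean distance between mean-centred log2 floored signals, among 6173 other genes above the floor on at least 1 array. Ccl2 and Ccl7 were each other's nearest gene, at 0.68. The next gene from Ccl2, Gbp3, was at 2.21 and from Ccl7, Gbp2, at 1.67, both guanylate-binding protein genes. The collagenase gene Mmp13 and the acute-phase gene Saa3 were also among the 5 nearest to each. Nearest to Ccl5 was Saa3, at 1.46, followed by Gbp3 (1.62), the adhesion gene Icam1 (1.64), Ccl9 (1.68) and Mmp13 (1.93). Ccl5 thus had no gene as close as the Ccl2 and Ccl7 pair. Nearest to Ccl9 was Irf1, at 0.64, followed by Saa3 (0.73), Mmp13 (0.74), the IkB gene Nfkbie (0.78) and Icam1 (0.91). Ccl5 was only the gene at place 29 from Ccl9, so these 2 genes were not a close pair. Mmp13 shared with all 4 genes a dimmer unstimulated knockout array, with 1960 and 115 in knockout cells with and without TNF, against 1506 and 348 in wild-type cells. So did Irf1 (302 against 482 in unstimulated wild-type cells) and Nfkbie (192 against 253). Gbp3 and Saa3 were below the floor in unstimulated knockout cells, against 154 and 123 in wild-type cells. Gbp2 and Icam1 were below it on both unstimulated arrays. These distances rest on 4 values per gene and partly on floored ones.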

How the data were processed

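Total RNA was profiled on 4 Affymetrix U74Av2 arrays, grouped by sample title. The deposited intensities, 1 per probe set and on a linear scale, came from MAS5 according to the submitters' processing notes. The MAS5 version is not stated and detection calls were not used here. The deposited intensities share 1 trimmed mean and were used unchanged. Of 12488 probe sets, 10833 non-control ones carry a single gene symbol in the platform annotation, 396 several and 1193 none, and 66 are controls. Where a gene had several probe sets, the brightest on average was read. Signals were raised to a floor (40th percentile, 92.5), and log2 ratios of at least 1 (2-fold) were counted among genes above the floor on at least 1 array compared. No test was made, with 1 array per group. Members and lists were chosen with earlier results of these data known. Named are the 4 genes, the measured CC chemokines, list members past 2-fold (some as examples) and the 5 nearest genes. Markers and neighbours below the floor, Nfkbia, Tnfrsf1a, Irf1, Xist and Eif2s3y were added as context after their values were seen. The ratio code was checked on simulated signals. Python 3.11.15, pandas 2.3.3 and numpy 2.4.6 were used. Alternatives were other floors, quantile normalization, equal medians, the mean of a gene's probe sets and, added after seeing the data, the linear scale.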

Additional observations from a re-analysis of the deposited data

How the results depend on the processing

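No paired analysis was possible because each group has 1 array. The 4 genes have 120 values under the alternative floors, scalings and probe set rule. Of these, 100 kept their side of 2-fold and moved by under 1.5 times. Quantile normalization and equal medians moved none of them by that much. Many of the 100 were fixed in advance. Each gene has 1 probe set, so the mean of all probe sets returns the same values. Ccl2, Ccl7 and Ccl9 exceeded the main floor on all arrays, so their values cannot change with a floor at the 20th percentile or none. The count of CC chemokines at least 2-fold lower in unstimulated knockout cells was 3 of 5 measured (all genes 4.7%). It was 2 of 5 under quantile normalization and equal medians. The floor mattered most for Ccl5, whose unstimulated knockout signal was 0.103 times the floor. With a floor at the 20th percentile (20.5), Ccl5 had a log2 response of at least 7.83 in knockout cells, a difference of response of at least 5.26 and an unstimulated ratio of knockout to wild-type of -2.77 or lower, past 2-fold. With no floor these were 8.94, 6.36 and -3.88. Raising the floor to the 60th percentile (290.7) made the log2 responses in knockout cells bounds of 5.96 for Ccl2, 4.00 for Ccl5, 4.56 for Ccl7 and 2.22 for Ccl9, and those in wild-type cells 1.52 for Ccl5 and 1.23 for Ccl9. The unstimulated ratio was then -2.31 or lower for Ccl2, -0.48 or lower for Ccl7, whose bound no longer reaches 2-fold, and 0.0 for Ccl5 and Ccl9 with both arrays below the floor. The differences of response were at least 2.28 for Ccl2 and at least 0.34 for Ccl7; the floored values of 2.48 for Ccl5 and 0.98 for Ccl9 bound nothing. On the linear scale the difference was 0.077 for Ccl2, under 2-fold, and turned to -0.081 for Ccl7. Counts of CC chemokines past 2-fold also moved with the floor, and so did the number measured. Lower in unstimulated knockout cells were 3 of 5 measured with the main floor and 5 of 11 at the 20th percentile. They were 1 of 2 at the 60th percentile and 7 of 14 with none. Higher in knockout cells with TNF were 1 of 7, 3 of 12 at the 20th percentile and 3 of 14 with none. Lower with TNF were 0, 2 and 2. A larger response in knockout cells was counted for 4 of 7 genes and for 7 of 12 at the 20th percentile. It was counted for 2 of 4 at the 60th percentile and 9 of 14 with none. A smaller response was counted for 0 and, at the 20th percentile, 1. Higher with TNF in knockout cells were 4 of 6 genes, 6 of 11 at the 20th percentile and 7 of 14 with none. In wild-type cells they were 4 of 5, 6 of 11 and 6 of 14. With the main floor, the shares over all genes were 4.7% lower in unstimulated knockout cells. With TNF, 5.62% were higher and 5.01% lower in knockout cells. A larger response there had 2.53% and a smaller one 1.13%. Higher with TNF were 1.48% in knockout and 2.64% in wild-type cells. Shares over all genes were not computed at the other floors. The family list holds the 4 chosen genes, so nothing is read from these counts. The added calls rest on signals under the main floor.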
